A study of Mus musculus with 564 samples.

Results

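The regions described here are 34 of the 59190 cis-regulatory elements (CREs) of a table of H3K27ac in mouse macrophages. They were chosen by position alone. A CRE was taken when its centre lay within 25 kb of an annotated RefSeq transcription start of Nfe2l2, Hmox1, Nqo1, Gclc, Gclm, Srxn1, Txnrd1 or Slc7a11, 8 genes of the oxidative stress response. The cells were wild type bone marrow-derived macrophages (BMDMs) from male C57/BL6 mice of 6 to 8 weeks, and no group carried a mutation or transgene. All cultures received either the solvent DMSO or 1 of 58 clinical kinase inhibitors (CKIs), each at a concentration set by the study for its intended target, so that doses differed between CKIs. After 1 h with DMSO or a CKI the cultures were left untreated (UT) or stimulated. The stimuli were the TLR4 ligand LPS and IL-4, each at 10 ng/mL, and stimulated cells were taken after 30 min, 1 h, 2 h or 4 h. The 564 ChIP-seq libraries comprised 18 DMSO libraries, 2 for UT and 2 for each stimulus and time, and 546 CKI libraries. By condition there were 75 UT, 249 LPS and 240 IL-4 libraries. Of the CKI groups 474 held 1 library and 36 held 2.

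NRF2, the protein encoded by Nfe2l2, is a transcription factor that is held in check by KEAP1, an adaptor that passes it to a ubiquitin ligase. When electrophiles or oxidants modify KEAP1, NRF2 accumulates, pairs with small MAF proteins and binds antioxidant response elements (AREs), short motifs near the genes that neutralise reactive molecules. In macrophages this programme is known to limit oxidative damage and to restrain inflammatory gene expression. Acetylation of lysine 27 of histone H3 (H3K27ac) marks active promoters and enhancers, and it rises and falls with their activity. It was measured in whole cultures, so that fewer cells with an active element and less acetylation per cell cannot be told apart. It does not measure NRF2 protein or its binding.

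A value at a CRE was the number of reads scaled and rounded by the authors, called a normalized read count here. Scaled totals ran from 4066894 to 12391409 per library, and the depth in reads behind a value is unknown. All 6 macrophage marker genes (Csf1r, Adgre1, Cd68, Itgam, Mertk and Spi1) had a promoter CRE, with UT means of 226 to 2082 in DMSO libraries. Of the markers of other cells, 1 of 4 neutrophil genes (mean 12.5), 1 of 3 dendritic cell genes (mean 25.5) and none of 3 T cell, 3 B cell and 3 fibroblast genes had one. The DMSO libraries had a higher contrast between strong and weak CREs than the CKI libraries. Contrast, the median value of the strongest CREs (above the 90th percentile of mean level) divided by that of the weakest (up to the 10th), ranged from 53.0 to 134 (median 75.1) in DMSO libraries and from 3.34 to 67.2 (median 17.6) in CKI libraries. The part of this difference in the comparisons of CKIs with DMSO was read only through the alternative scalings and references given beside them.

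The 34 CREs were spread unevenly over the genes. Nfe2l2 and Txnrd1 had 7 each, Hmox1 had 6, Gclc and Gclm 4 each, and Nqo1, Srxn1 and Slc7a11 2 each. Each gene had 1 promoter CRE, which overlapped its start. The other 26 are named by the distance of their centre from the nearest start of the gene, negative for upstream. Of all 34, 8 lay in an intron of the gene itself, 8 were intergenic and 6 were closer to the start of another gene. The CRE at Hmox1 +15.5 kb covered the start of Mcm5 and the one at Nqo1 -21.9 kb the start of Nob1. The one at Srxn1 -24.1 kb covered the starts of AA387200 and Scrt2 and the one at Txnrd1 +6.2 kb the start of Eid3. The one at Txnrd1 -21.9 kb covered the start of 1700028I16Rik, and Txnrd1 -19.7 kb lay in an intron of that gene. The one at Gclm -1.9 kb covered the start of Gm46822. To which gene these CREs belong was not tested. The median width was 1731 bp (1652 bp over all CREs). Positions are on mm10.

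The sequences below show the ARE letters in some of the regions described here that hold them. TGACNNNGC, the core of the ARE, was searched on both strands. The AP-1 motif TGACTCA overlaps it where the core reads TGACTCAGC. In the 300 bases around the centre, 6 of the 34 CREs held the core (17.6%), against 14.6% of all 59190 CREs. In the whole CRE, 20 of 34 held it (58.8%), against 51.1%. AP-1 was found at the centre of 6 of 34 (17.6%), against 16.1%. The shares of the members were near those of all CREs, and a match says only that the letters are present. Each site is shown with 15 bases on either side, 5′ to 3′ on the strand of the core, which is in capitals. The Hmox1 -8.5 kb CRE (chr8:75083128-75087179, intergenic) is shown because it held 5 cores, 3 of them close together and all 3 of these TGACTCAGC. The Hmox1 -3.9 kb CRE (chr8:75088869-75090617, intergenic) had 4, of which 1 at its centre is shown, and it was lower after both stimuli.
Hmox1 -8.5 kb, minus strand, chr8:75083934-75083972: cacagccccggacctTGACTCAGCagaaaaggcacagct
Hmox1 -8.5 kb, minus strand, chr8:75083962-75084000: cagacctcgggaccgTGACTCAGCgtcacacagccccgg
Hmox1 -8.5 kb, minus strand, chr8:75083991-75084029: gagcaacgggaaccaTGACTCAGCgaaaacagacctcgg
Hmox1 -3.9 kb, minus strand, chr8:75089735-75089773: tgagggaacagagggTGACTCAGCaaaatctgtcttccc
Gclc -3.6 kb, minus strand, chr9:77750730-77750768: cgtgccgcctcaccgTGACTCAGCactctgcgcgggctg
Gclm -1.9 kb, plus strand, chr3:122243620-122243658: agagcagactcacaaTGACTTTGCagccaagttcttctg
Nfe2l2 -16.2 kb, minus strand, chr2:75720416-75720454: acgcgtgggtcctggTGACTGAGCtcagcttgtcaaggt
Txnrd1 -19.7 kb, minus strand, chr10:82814232-82814270: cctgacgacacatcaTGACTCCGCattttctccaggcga

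Promoter windows of 250 bases before to 50 after a start were given by RefSeq on GRCm38.p6 for 6 of the 8 genes (all but Hmox1 and Gclc). The core was in 4071 of 32851 such mouse windows (12.4%). It was present in the window of Nfe2l2, Srxn1 and Gclm and in 1 of 3 windows of Txnrd1, and these letters were not in the window of Slc7a11 or Nqo1. The windows of 3 of the 4 genes whose promoter CREs were called after LPS are printed on the strand of the gene, with the core in capitals as it reads on that strand. The Slc7a11 and Txnrd1 promoter CREs were higher after LPS and that of Gclm was lower.
Slc7a11, minus strand, chr3:50443564-50443863: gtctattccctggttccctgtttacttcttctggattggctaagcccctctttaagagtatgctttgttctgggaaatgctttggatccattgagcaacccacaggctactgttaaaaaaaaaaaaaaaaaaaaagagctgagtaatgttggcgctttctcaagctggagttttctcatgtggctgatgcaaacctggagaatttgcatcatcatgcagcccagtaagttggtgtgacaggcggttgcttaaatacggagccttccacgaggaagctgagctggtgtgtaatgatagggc
Txnrd1, plus strand, chr10:82858956-82859255: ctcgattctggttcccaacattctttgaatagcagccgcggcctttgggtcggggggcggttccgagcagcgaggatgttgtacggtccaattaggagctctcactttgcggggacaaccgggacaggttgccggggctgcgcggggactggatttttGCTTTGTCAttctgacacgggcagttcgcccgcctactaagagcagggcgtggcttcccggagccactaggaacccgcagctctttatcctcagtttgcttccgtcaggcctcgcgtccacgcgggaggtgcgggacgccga
Gclm, plus strand, chr3:122245307-122245606: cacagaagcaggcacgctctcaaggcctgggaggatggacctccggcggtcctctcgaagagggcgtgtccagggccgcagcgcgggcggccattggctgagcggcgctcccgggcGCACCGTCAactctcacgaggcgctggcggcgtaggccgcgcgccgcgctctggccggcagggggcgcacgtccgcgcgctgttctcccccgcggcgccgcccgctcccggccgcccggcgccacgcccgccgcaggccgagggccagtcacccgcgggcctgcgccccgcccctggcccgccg

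In unstimulated DMSO cells the 8 promoters covered a wide range of acetylation. Per kb of CRE, the mean normalized read count was 205 at Nfe2l2, 164 at Srxn1, 162 at Hmox1, 144 at Txnrd1, 68.9 at Gclm, 34.6 at Slc7a11, 31.3 at Gclc and 29.9 at Nqo1. Srxn1, which encodes sulfiredoxin, had 156 and 171 per kb in its 2 libraries. Hmox1, which encodes the haem-degrading heme oxygenase 1, had 158 and 167, so that the order of these neighbours cannot be read from 2 libraries. Slc7a11, the cystine importer of system xc-, had 35.9 and 33.3. Gclc, the catalytic subunit of glutamate-cysteine ligase, had 26.5 and 36.0 per kb, and Nqo1, the quinone reductase, had 30.8 and 29.0. The pair of Gclc values spanned both Slc7a11 and both Nqo1 values, so that the order of these 3 cannot be read either.

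LPS changed acetylation at many of these elements, in both directions. Over the 4 times against UT, 15 of the 33 CREs tested were called (limma, F-test adjusted p below 0.01 and a log2 difference above 1 in size at 1 or more times). Of these 5 were higher and 10 lower. Over all 50697 CREs tested, 53.5% were called, 29.0% higher and 24.6% lower, so that the share of called members was not above that of the genome. The median size of the largest difference was 1.09 on the log2 scale for the members and 1.19 for all CREs. Gclc -22.3 kb was not tested because its mean was under 10. Among the 8 promoters, 2 rose (Slc7a11 and Txnrd1), 2 fell (Hmox1 and Gclm) and 4 did not pass (Nfe2l2, Srxn1, Gclc and Nqo1). Of all promoter CREs 14.7% rose and 17.3% fell.

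**Figure D1:**
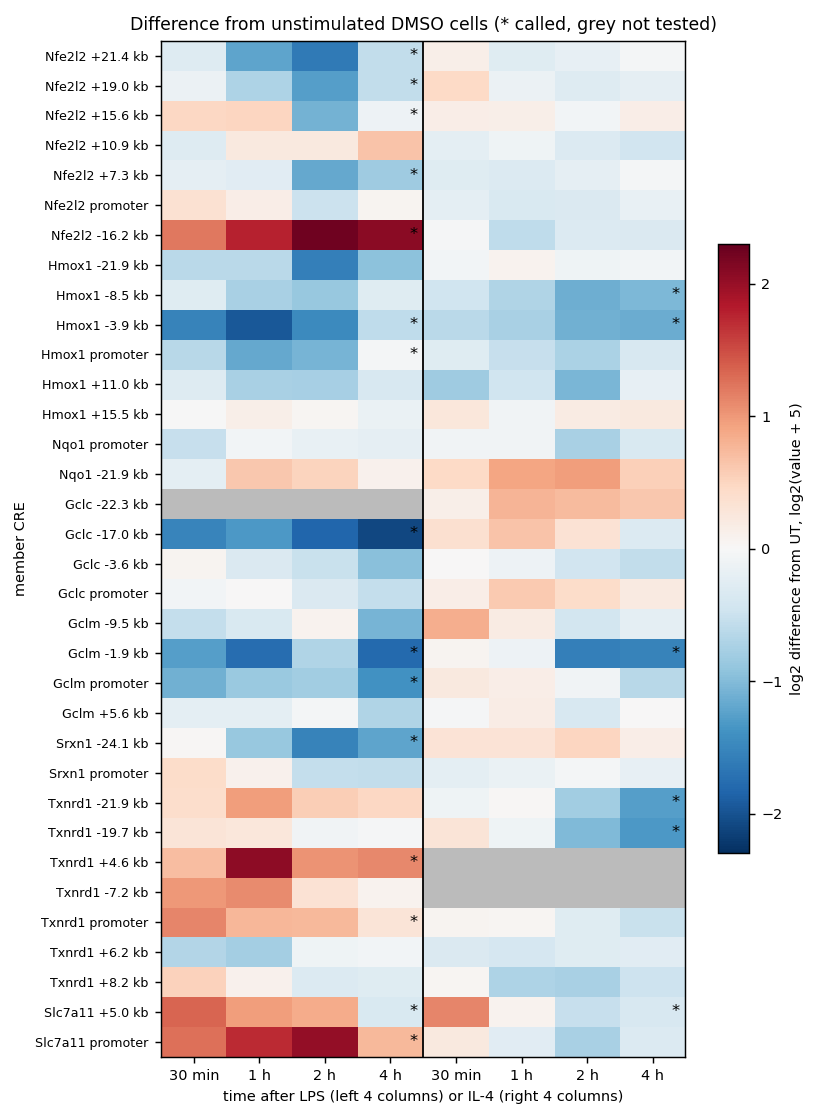
Log2 difference of each of the 34 member CREs (rows, in genome order within each gene) from unstimulated cells at 4 times of LPS (left) and IL-4 (right), from the 2 DMSO libraries per group on the log2(value + 5) scale. Red is higher and blue lower, an asterisk marks a called course and grey a CRE that was not tested; Nfe2l2 -16.2 kb, Txnrd1 +4.6 kb and the Slc7a11 promoter are the deepest red after LPS, and the 10 courses called lower after LPS lie at Nfe2l2, Hmox1, Gclc, Gclm and Srxn1 CREs.

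The CREs that rose belonged to cystine import, to thioredoxin reduction and to Nfe2l2 itself. The Slc7a11 promoter (chr3:50442811-50445150) had 84 and 78 normalized reads in UT, 168 and 244 at 30 min of LPS, 312 and 247 at 1 h, 327 and 366 at 2 h and 135 and 142 at 4 h. Both libraries at each LPS time lay above both UT libraries, and the peak was at 2 h. The log2 difference there was 2.03 ± 0.18 (SE, n = 2 and 2, F-test adjusted p = 6.11e-12), and it was 0.74 ± 0.18 at 4 h. Slc7a11 +5.0 kb (chr3:50437479-50439838), which covers an exon of the gene, had 77 and 80 in UT, 190 and 222 at 30 min, 160 and 155 at 1 h, 142 and 150 at 2 h and 75 and 49 at 4 h. It peaked earlier than the promoter, at 30 min (1.33 ± 0.20 on the log2 scale, F-test adjusted p = 3.92e-09), and was back at or under the UT level at 4 h.

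The Txnrd1 promoter (chr10:82857876-82861648), at the gene of cytosolic thioredoxin reductase, had 534 and 552 in UT and 1178 and 1193 at 30 min of LPS. It then had 927 and 932 at 1 h, 890 and 936 at 2 h and 659 and 678 at 4 h. All 8 LPS libraries were above both UT libraries, and the level fell after 30 min. The difference at 30 min was 1.12 ± 0.09 (F-test adjusted p = 4.42e-12). After quantile normalization it was 0.87 and no longer called. Txnrd1 +4.6 kb, in an intron, was weak, with 5 and 5 in UT, 13 and 10 at 30 min, 46 and 29 at 1 h, 16 and 15 at 2 h and 13 and 21 at 4 h. Its difference at 1 h was 2.06 ± 0.37, it passed the filter only through the LPS libraries, and without the first LPS library of 1 h it was not called (adjusted p = 0.011).

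Nfe2l2 -16.2 kb (chr2:75720000-75721703, intergenic) showed the largest rise of the 34 CREs. It had 64 and 79 in UT, 152 and 195 at 30 min, 256 and 251 at 1 h, 370 and 342 at 2 h and 349 and 288 at 4 h of LPS. The groups did not overlap at any time, and unlike the Slc7a11 promoter the level at 4 h was still close to its highest. The log2 difference was 2.24 ± 0.16 at 2 h (F-test adjusted p = 5.41e-14) and 2.08 ± 0.16 at 4 h. The call held under all 19 alternatives.

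**Figure D2:**
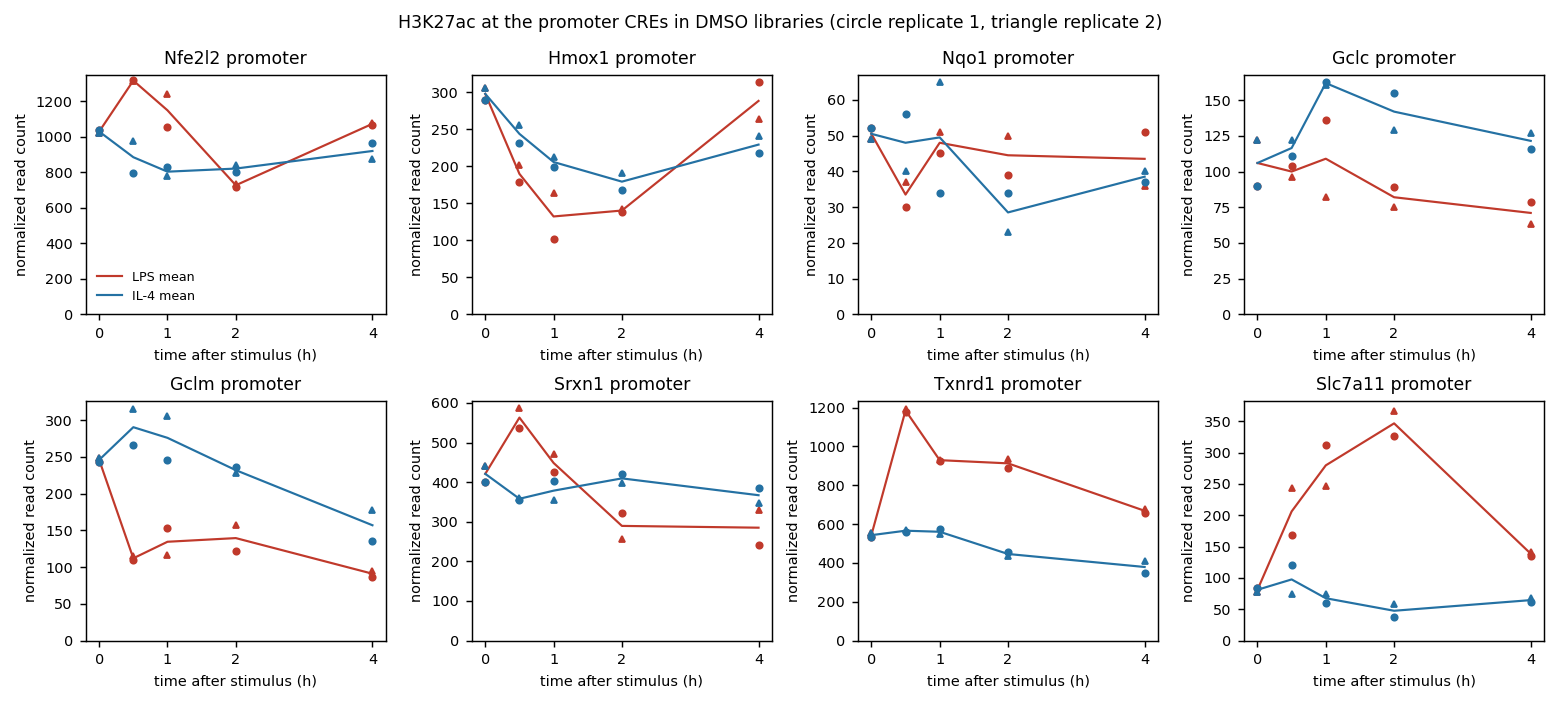
Normalized read count at the 8 promoter CREs (vertical axes from 0, each panel with its own range) against time after LPS (red) or IL-4 (blue) in DMSO libraries; circles and triangles are the 2 libraries of a group and lines join their means, with UT at time 0. Slc7a11 reaches 327 and 366 at 2 h of LPS from 84 and 78, Txnrd1 reaches 1178 and 1193 at 30 min, and Gclm is lowest, at 87 and 95, at 4 h of LPS.

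The CREs that fell after LPS lay at the genes of glutathione synthesis, at Hmox1, in the introns of Nfe2l2 and at Srxn1 -24.1 kb. The Gclm promoter (chr3:122244547-122248118), at the modifier subunit of glutamate-cysteine ligase, had 243 and 249 in UT and 109 and 115 at 30 min of LPS, then 153 and 116 at 1 h, 122 and 157 at 2 h and 87 and 95 at 4 h. Every LPS library was below both UT libraries. The difference was -1.39 ± 0.19 at 4 h (F-test adjusted p = 7.7e-07). Gclm -1.9 kb, just upstream, over the start of Gm46822, had 134 and 126 in UT, 41 and 63 at 30 min, 41 and 30 at 1 h, 73 and 85 at 2 h and 37 and 31 at 4 h. It was low early, partly higher at 2 h and low again at 4 h, where the difference was -1.80 ± 0.25 (F-test adjusted p = 1.74e-07).

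At Gclc a distal element was called lower and the promoter was not called. Gclc -17.0 kb (chr9:77736699-77738416, intergenic) had 136 and 156 in UT, 53 and 43 at 30 min, 60 and 51 at 1 h, 41 and 34 at 2 h and 35 and 26 at 4 h of LPS. It fell within 30 min and stayed low, with a difference of -2.10 ± 0.25 at 4 h (F-test adjusted p = 3.93e-08). The Gclc promoter had 90 and 122 in UT and 79 and 63 at 4 h. Its largest difference was -0.54 ± 0.23 and its course did not pass the test (F-test adjusted p = 0.102). In the CKI libraries its difference at 4 h was -0.63 ± 0.07, where the F-test passed but not the size threshold. Gclc -3.6 kb, which holds the TGACTCAGC shown above, had 287 and 281 in UT and 148 and 138 at 4 h, a difference of -0.97 ± 0.15 that passed the F-test but not the size threshold.

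Hmox1 fell transiently. Its promoter (chr8:75092683-75094514) had 289 and 306 in UT, 178 and 201 at 30 min, 101 and 163 at 1 h, 138 and 142 at 2 h and 313 and 263 at 4 h of LPS. The libraries of 30 min to 2 h were all below both UT libraries, and those of 4 h were around them. The difference was -1.18 ± 0.18 at 1 h (F-test adjusted p = 7.58e-08) and -0.05 ± 0.18 at 4 h, and after quantile normalization the course was not called (-0.98 at 1 h). Hmox1 -3.9 kb had 212 and 268 in UT, 81 and 76 at 30 min, 58 and 58 at 1 h, 108 and 63 at 2 h and 156 and 160 at 4 h. It fell more than the promoter, by 1.95 ± 0.21 at 1 h on the log2 scale (F-test adjusted p = 1.19e-09), and remained below both UT libraries at 4 h.

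Within Nfe2l2, 4 intronic CREs fell at 2 h while the element upstream rose. The strongest, Nfe2l2 +21.4 kb, singled out here after its values were seen, had 516 and 483 in UT, 391 and 420 at 30 min, 197 and 228 at 1 h, 167 and 150 at 2 h and 319 and 354 at 4 h of LPS. It was lowest at 2 h, at -1.63 ± 0.14 (F-test adjusted p = 1.71e-12), and was partly back at 4 h. The other 3 (+19.0 kb, +15.6 kb and +7.3 kb) had differences of -1.27, -1.10 and -1.17 at 2 h. Of these calls, +15.6 kb was lost in 5 of 19 alternatives, +7.3 kb in 3 and +19.0 kb in 2. Srxn1 -24.1 kb had 21 and 20 in UT and 6 and 2 at 2 h, and its call was lost in 3 of 19. The remaining 18 CREs tested were not called, and their largest differences had sizes of 0.16 to 1.56.

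**Figure D3:**
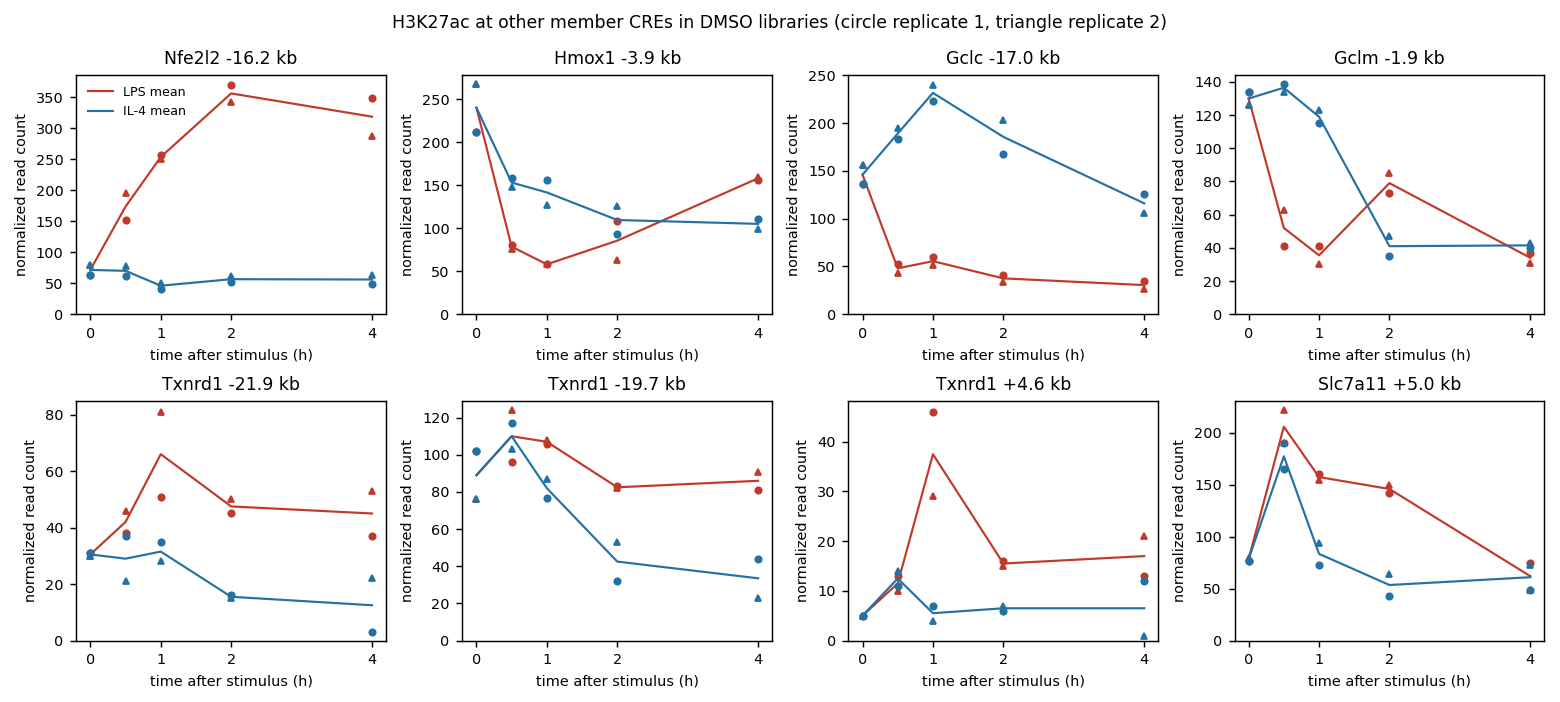
Normalized read count at 8 other member CREs (vertical axes from 0, each panel with its own range) against time after LPS (red) or IL-4 (blue) in DMSO libraries; circles and triangles are the 2 libraries of a group and lines join their means. Nfe2l2 -16.2 kb rises with LPS and not with IL-4, Gclc -17.0 kb separates the stimuli from 30 min on, and Txnrd1 +4.6 kb stays under 50 throughout.

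The promoters of Nfe2l2 and Srxn1 passed the F-test after LPS without reaching the size threshold. The Nfe2l2 promoter had 1038 and 1020 in UT, 1320 and 1312 at 30 min of LPS, 1057 and 1240 at 1 h, 717 and 736 at 2 h and 1068 and 1077 at 4 h. It was above both UT libraries at 30 min and below both at 2 h, with differences of 0.35 ± 0.09 and -0.50 ± 0.09, and the F-test passed (adjusted p = 5.54e-09). The Srxn1 promoter went the same way, with 401 and 441 in UT, 538 and 588 at 30 min, 426 and 471 at 1 h, 323 and 256 at 2 h and 241 and 329 at 4 h (0.42 ± 0.14 at 30 min and -0.57 ± 0.14 at 4 h). The Nqo1 promoter was weak, with 52 and 49 in UT, and its 8 LPS libraries ranged from 30 to 51. Its largest difference was -0.53 ± 0.27, and the course did not pass (F-test adjusted p = 0.389).

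IL-4 touched fewer of these elements. Of 32 CREs tested 6 were called, 1 higher and 5 lower, against 24.7% of all CREs tested, 13.6% higher and 11.0% lower. None of the 8 promoters was called. Of these, 5 passed the F-test without reaching the size threshold. Of all promoter CREs 4.89% rose and 2.55% fell. Gclm -1.9 kb had 139 and 134 at 30 min of IL-4, 115 and 123 at 1 h, 35 and 47 at 2 h and 40 and 43 at 4 h. It stayed near its UT level of 134 and 126 for 1 h and then dropped, with a log2 difference of -1.56 ± 0.20 at 2 h (F-test adjusted p = 1.28e-12). The Gclm promoter itself had 236 and 228 at 2 h and 136 and 178 at 4 h of IL-4, a difference of -0.64 ± 0.14 at 4 h.

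Upstream of Hmox1, 2 CREs fell after IL-4 and were still below both UT libraries at 4 h. Hmox1 -3.9 kb had 158 and 148 at 30 min, 156 and 127 at 1 h, 93 and 126 at 2 h and 111 and 99 at 4 h. Its difference was -1.15 ± 0.17 at 4 h (F-test adjusted p = 2.07e-07), and without the second UT library the course was not called. Hmox1 -8.5 kb, singled out after its values were seen because of the cores shown above, had 549 and 589 in UT, 444 and 381 at 30 min, 338 and 366 at 1 h, 242 and 276 at 2 h and 298 and 256 at 4 h of IL-4. All 8 IL-4 libraries were below both UT libraries, with a difference of -1.12 ± 0.11 at 2 h (F-test adjusted p = 8.87e-12). The Hmox1 promoter had 168 and 190 at 2 h of IL-4, a difference of -0.72 ± 0.13.

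Upstream of Txnrd1 a pair of CREs, at the start and in an intron of 1700028I16Rik, fell late after IL-4. Txnrd1 -19.7 kb had 102 and 76 in UT, 117 and 103 at 30 min, 77 and 87 at 1 h, 32 and 53 at 2 h and 44 and 23 at 4 h (-1.33 ± 0.24 at 4 h, F-test adjusted p = 1.07e-07). Both libraries of 2 h and of 4 h were below both UT libraries. After quantile normalization it was not called. Txnrd1 -21.9 kb had 31 and 30 in UT and 3 and 22 at 4 h of IL-4, and its call (F-test adjusted p = 0.00527) was lost in 9 of 19 alternatives, among them leaving out either UT library. The Txnrd1 promoter had 349 and 409 at 4 h of IL-4 (-0.52 ± 0.10). The single rise was Slc7a11 +5.0 kb, which had 165 and 190 at 30 min of IL-4, 73 and 94 at 1 h, 43 and 64 at 2 h and 49 and 73 at 4 h. It was above both UT libraries only at 30 min, by 1.12 ± 0.21 (F-test adjusted p = 2.32e-08), and after quantile normalization this was not called. The Slc7a11 promoter, with 120 and 75 at 30 min and 37 and 58 at 2 h of IL-4, was not called.

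The stimuli were compared directly at matched times. LPS and IL-4 differed at 16 of 34 CREs, 7 higher and 9 lower after LPS, against 58.4% of all CREs tested, 29.2% higher and 29.2% lower. Among the 16, Gclc -22.3 kb (lower after LPS) had a mean of 8.3 in the UT and LPS libraries. It passed the filter only through the IL-4 libraries, and Txnrd1 +4.6 kb (higher after LPS) only through the LPS libraries. Both calls are therefore partly set by the filter. Of the promoters, Slc7a11 and Txnrd1 were higher after LPS and Gclm lower, while 12.7% of all promoter CREs were higher and 21.8% lower. At 2 h the Slc7a11 promoter was higher after LPS by 2.77 ± 0.21 on the log2 scale (327 and 366 against 37 and 58). Nfe2l2 -16.2 kb was higher by 2.56 ± 0.19 at 2 h, with 370 and 342 after LPS and 52 and 61 after IL-4. Gclc -17.0 kb was lower by 2.16 ± 0.20 at 2 h, with 41 and 34 after LPS and 168 and 203 after IL-4. At Gclm -1.9 kb the order turned with time, from -1.63 ± 0.24 at 1 h to 0.88 ± 0.24 at 2 h, both within the same called course. The Gclm promoter was lower after LPS by 1.33 ± 0.17 at 30 min, and the Txnrd1 promoter higher by 1.06 ± 0.10. After quantile normalization neither of these last 2 promoters was called. Hmox1 -3.9 kb was lower after LPS at 1 h (-1.21 ± 0.20), a call that quantile and cyclic loess normalization ended.

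The wider pathway was read at the promoter CREs of 46 other genes of redox defence, NADPH supply, haem and iron handling and NRF2 control, of which 43 had one. After LPS 22 of 43 were called, 4 higher and 18 lower, against 14.7% and 17.3% of all promoter CREs. By group, 3 of 9 NRF2 regulators and partners rose and 2 fell. In the glutathione group 3 of 8 fell, of haem and iron genes 4 of 7, of NADPH genes 3 of 5, of thioredoxin genes 1 of 6 and of the other targets 5 of 8, with 1 rise among the last. Osgin1, an oxidative stress-induced growth inhibitor, fell most, from 1271 and 1252 in UT to 156 and 128 at 2 h. Maff, a small MAF protein and partner of NRF2, rose from 95 and 82 to 772 and 802 at 30 min. Sod2, the mitochondrial superoxide dismutase and a known target of NF-kB as well, rose from 151 and 142 to 735 and 777 at 2 h. Slc40a1, the iron exporter ferroportin, fell from 183 and 183 to 28 and 60 at 2 h. After IL-4 1 of 43 was called, Slc40a1, which had 54 and 89 at 4 h. In the CKI libraries Slc40a1 was not called after IL-4 (-0.76 at 4 h). Of all promoter CREs 7.44% were called after IL-4. LPS and IL-4 differed at 23 of 43, 9 higher and 14 lower after LPS, against 34.6% of all promoter CREs, 12.7% higher and 21.8% lower.

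The courses of the promoters differed among themselves. Over the 9 DMSO groups, Pearson's r of mean log2 values was 0.89 between Slc7a11 and Txnrd1, 0.76 between Gclm and Gclc, 0.61 between Srxn1 and Nfe2l2 and -0.68 between Slc7a11 and Gclc. These are descriptions over 9 groups that share 1 UT group. Among 6189 promoter CREs that ranged by over 1 on the log2 scale, those most like the Slc7a11 promoter were Nras (0.977) and Heca (0.975), and those most like the Txnrd1 promoter were Hivep2 (0.99) and Trappc10 (0.99). For Hmox1 they were Soat1 (0.978) and Gpr35 (0.963), for Gclm Zfp608 (0.962), and for Gclc Kansl2 (0.979) and Edaradd (0.971). For Nfe2l2 they were Glipr1 (0.971) and Spic (0.936), for Srxn1 Epb41l2 (0.965) and Hmga1 (0.964), and for Nqo1 Pira2 (0.841) and Gm50595 (0.803). None of the genes named here was another of the 8. Of the 8, Nfe2l2, Srxn1 and Nqo1 ranged by 0.85, 0.99 and 0.75, so that they could not be named.

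The LPS and IL-4 courses could be read again within the CKI libraries, each CKI against its own UT libraries. With the CKI libraries in place of DMSO, 8 of 34 CREs were called after LPS (2 higher and 6 lower, against 28.9% of all CREs) and 2 of 34 after IL-4 (both lower, against 8.84%). The 8 were Nfe2l2 -16.2 kb and the Slc7a11 promoter (higher), and Nfe2l2 +21.4 kb, Nfe2l2 +19.0 kb, Hmox1 -3.9 kb, the Hmox1 promoter, Gclc -17.0 kb and Gclm -1.9 kb (lower). The 2 after IL-4 were Hmox1 -8.5 kb and Txnrd1 -19.7 kb. All 10 had the same direction in DMSO libraries. At 2 h of LPS, Nfe2l2 -16.2 kb was higher than its own UT with all 55 CKIs that had both, with a median of 1.5 on the log2 scale (0.22 with Volasertib to 2.45 with Tanzisertib). Of all CREs 12.5% were higher with at least 0.9 of the CKIs. At 1 h of LPS, Hmox1 -3.9 kb was lower than its own UT with all 57 CKIs, with a median of -1.54, and 14.2% of all CREs were lower with at least 0.9 of them.

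The rise of Slc7a11 at 1 h and 2 h of LPS was smaller in most CKI libraries than with DMSO, and at 4 h the CKI libraries lay on both sides of DMSO. At 2 h of LPS the 59 CKI libraries ranged from 62 to 253 normalized reads at the promoter, with a median of 183, and all of them lay below both DMSO libraries (327 and 366). This was so at 1.47% of all CREs. After quantile normalization 57 of 59 remained below both. Each of the 55 CKIs with its own UT rose less than DMSO at that time, with a median of 1.03 against 2.03, though 53 were above their UT. At 30 min the difference was not there, since 42 of 62 CKI libraries lay between the DMSO libraries, 15 below both and 5 above both. At 1 h 56 of 63 lay below both. At 4 h, when the DMSO level had fallen, 26 of 57 lay below both and 31 above both. At Slc7a11 +5.0 kb and 2 h, 57 of 59 CKI libraries (29 to 183, median 81.0) lay below the DMSO libraries (142 and 150), while at 4 h 9 of 57 lay below both and 29 above both. At least 0.9 of the CKI libraries lay below both DMSO libraries at 5.10% of all CREs. The CKI libraries share these 2 DMSO libraries, and a low contrast of a CKI library and a smaller rise cannot be told apart in them.

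The Txnrd1 promoter and Nfe2l2 -16.2 kb were also lower than DMSO in most CKI libraries after LPS. The Txnrd1 promoter was so up to 2 h of IL-4 as well. At 30 min of LPS the Txnrd1 promoter had 433 to 1333 in 62 CKI libraries (median 820), 59 of them below both DMSO libraries (1178 and 1193). Against their own UT 56 of 58 CKIs were higher, by a median of 0.70 against 1.12 with DMSO. After quantile normalization 43 of 62 were below both DMSO libraries. At that time at least 0.9 of the CKI libraries lay below both at 3.20% of all CREs. In UT 43 of 73 CKI libraries were below both DMSO libraries at the Txnrd1 promoter and 21 above both. At 2 h of IL-4 52 of 58 were below both and 3 above, and at 4 h of IL-4 18 of 55 below and 16 above. Nfe2l2 -16.2 kb at 2 h had 97 to 351 in 59 CKI libraries (median 203), 56 of them below both DMSO libraries (370 and 342), and 54 after quantile normalization. In unstimulated cells the same CRE had a CKI median of 64.0, with 36 of 73 libraries below both DMSO libraries and 22 above. The Gclm promoter, which fell after LPS, did not separate in this way at 2 h, with 26 of 59 CKI libraries between the DMSO libraries, 24 below and 9 above. At 30 min 34 of 62 lay above both DMSO libraries and 22 below both. At 4 h, when its DMSO level was lowest, 43 of 57 lay above both and 9 below both. After quantile normalization these were 37 and 12. Members not called higher after LPS could separate too. At 2 h the Nfe2l2 promoter was below both DMSO libraries in 52 of 59 CKI libraries (20 after quantile normalization). Nfe2l2 +21.4 kb, called lower, was below both in 56 of 63 at 1 h and in 24 of 59 at 2 h.

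**Figure D4:**
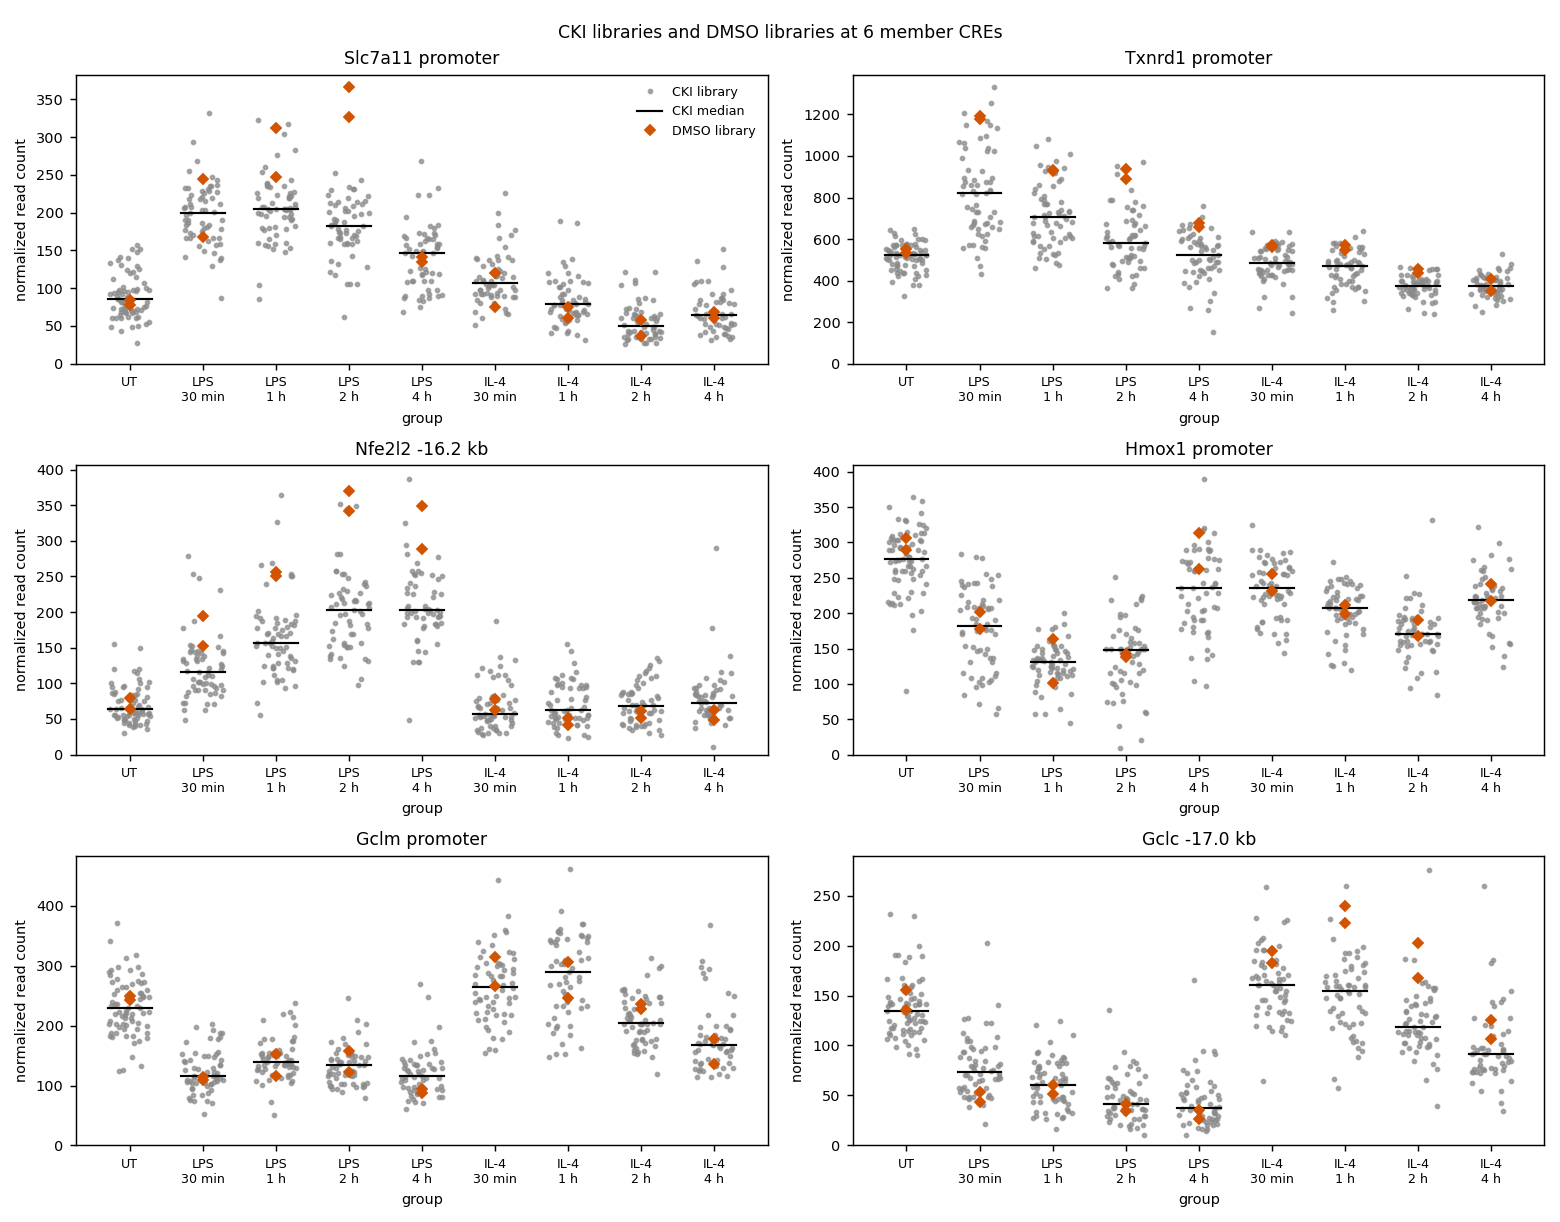
Normalized read count (vertical axes from 0) at 6 member CREs in every CKI library (grey points, spread sideways for sight) and every DMSO library (orange diamonds) by stimulus and time; the black bar is the median of the CKI libraries. At 2 h of LPS all 59 grey points of the Slc7a11 promoter lie below both diamonds and 56 of 59 do so at Nfe2l2 -16.2 kb, while the diamonds of the Hmox1 and Gclm promoters lie within the grey points in most groups.

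Each CKI was then set against DMSO over the whole course. In the libraries of UT and LPS, 515 of 1972 pairs of a member CRE and a CKI were called (adjusted p below 0.05 and a log2 difference above 0.5 in size), 407 higher and 108 lower than DMSO. Over all CREs 36.4% of pairs were called, 32.3% higher and 4.04% lower. In the libraries of UT and IL-4, 583 of 1972 were called, 543 higher and 40 lower, against 39.2% of all pairs, 36.2% higher and 3.03% lower. Weak and strong members were split between the directions. The 14 members with a mean under 50 in DMSO libraries had median differences of 0.26 to 1.37 after LPS and held 372 of the 407 higher calls. The 20 stronger members had medians of -0.59 to 0.41 and held 107 of the 108 lower calls. The same DMSO libraries set this split and served as the reference, so that weak members can lean higher and strong members lower by construction. Gclc -22.3 kb, with a DMSO mean of 8.3, passed the filter here only through the CKI libraries. The split of the calls over all CREs was not counted.

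The direction also changed with the scaling. After quantile normalization 57 pairs were called after LPS, 17 higher and 40 lower, and after cyclic loess normalization 134, 47 higher and 87 lower. After IL-4 the counts were 57 (15 higher and 42 lower) and 143 (33 higher and 110 lower). When each CKI was set against the mean of the other CKIs in its run of neighbouring table columns, in place of DMSO, 25 pairs were called after LPS (15 higher and 10 lower) and 17 after IL-4 (13 higher and 4 lower), against 1.15% and 1.25% of all pairs. Of the 25, 15 belonged to PH797804, which was called in this way at 42.6% of all CREs after LPS. Its 30 min LPS library had the most CREs at 0, and without that library 24 pairs were called. Of the 17 after IL-4, 9 belonged to PH797804, with 40.7% of all CREs. With DMSO as reference, Nfe2l2 -16.2 kb was lower with 31 CKIs after LPS (15 after quantile and 41 after cyclic loess normalization), the Txnrd1 promoter with 24 (1 and 1) and the Slc7a11 promoter with 8 (1 and 9). None of these 3 was higher with any CKI under the 3 scalings.

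**Figure D5:**
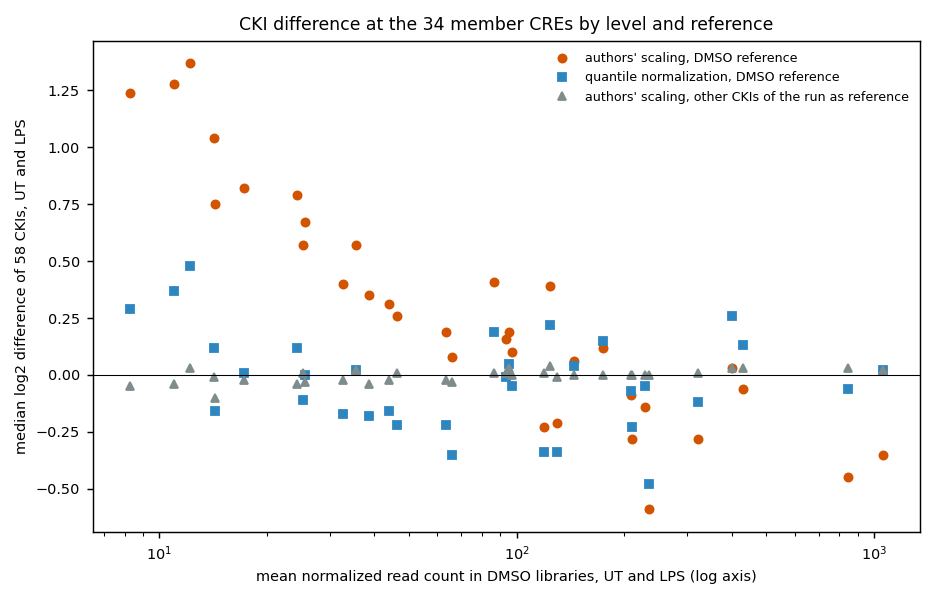
Median log2 difference of the 58 CKIs over UT and LPS libraries (vertical axis) at each of the 34 member CREs against its mean normalized read count in DMSO libraries (horizontal, log axis), for 2 scalings against DMSO and for the other CKIs of the run as reference. With the authors' scaling all 14 CREs with a mean under 50 lie above 0, from 0.26 to 1.37; after quantile normalization 7 of the 14 do, and against the other CKIs all members lie between -0.10 and 0.04. The DMSO libraries of the horizontal axis are also the reference for the 2 scalings, so that the axes are not independent there.

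The number of member CREs called per CKI mostly followed that of all CREs. After LPS it ran from 0 to 19 of 34 with a median of 8, and the share of members was below the share of all CREs with 50 of 58 CKIs. AZD2014, an mTOR inhibitor, had the most with 19 (10 higher and 9 lower; 53.3% of all CREs). The EGFR family inhibitor Afatinib had 18 (50.2%) and the PI3K and mTOR inhibitor Omipalisib 17 (58.9%), as had the p38 inhibitor PH797804. The MEK inhibitor Refametinib had 0 (0.94% of all CREs), and ONO4059analogue, Selumetinib and GSK461364 had 1 each. After IL-4 it ran from 2 to 17 with a median of 11. The share of members was below that of all CREs with 52 of 58 CKIs. Tanzisertib and Lenvatinib had 17 each (57.3% and 53.7% of all CREs) and Silmitasertib 16 (62.8%), as had Neratinib, X396, Talmapimod and Afatinib (55.0% to 59.9%), while VX702, ONO4059analogue, GSK461364 and Pacritinib had 2 each (5.18% to 11.4%). The 4 CKIs with the fewest after LPS had contrasts of 35.5 to 39.6 and the 4 with the most 8.20 to 10.9. Other CKIs did not keep this order, such as Encorafenib with 14 calls at a contrast of 29.9 and XL413 with 2 at 17.5. The 4 with the fewest lay in 1 run of table columns, as did PH797804, and AZD2014, Afatinib and Omipalisib lay in another. The part of contrast and of run in the count was not tested.

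There were 21 pairs called against DMSO, against the other CKIs of the run and after at least 1 rescaling, a rule chosen after the values were seen. The share of all pairs that pass this rule was not counted, so that the 21 cannot be set against a background. Of these 6 were with PH797804 and 2 with Talmapimod. With PH797804, Gclc -17.0 kb had 190 in UT, 141 at 30 min, 83 at 1 h, 78 at 2 h and 166 at 4 h of LPS, each above both DMSO libraries of its group (1.13 ± 0.27 over UT and LPS, 1.28 against the run, 0.66 after quantile normalization, the last not called). With each of its libraries left out in turn the difference was 0.86 to 1.25. The Hmox1 promoter was lower with PH797804 (-0.68 ± 0.22, and -0.87 to -0.51 with single libraries left out). At the Hmox1 promoter, AZD2014 had 258 in UT, 147 at 30 min, 58 at 1 h, 10 at 2 h and 135 at 4 h of LPS. Each value was below both DMSO libraries of its group, with a difference of -1.19 ± 0.22 over UT and LPS (adjusted p = 2.9e-06), -0.76 against the run and -1.13 after quantile normalization. The 2 h value of 10 was the lowest of the 59 CKI libraries, and without that library the difference was -0.66. At Hmox1 -3.9 kb, Afatinib had 29 and 11 in its libraries of 1 h of LPS, where DMSO had 58 and 58 (-0.58 ± 0.16 over UT and LPS). Without the second library of 1 h this was -0.38. With Afatinib Txnrd1 -19.7 kb was higher (0.68 ± 0.18, and 0.61 to 0.78 with each of its libraries left out in turn). With AZD2014 Txnrd1 -21.9 kb was lower (-0.85 ± 0.28), but only -0.23 without its 2 h library, which had 0 there.

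After IL-4 the 6 pairs of this kind lay at Txnrd1, Slc7a11 and Gclc. The largest of the 6 was Txnrd1 +8.2 kb with Afatinib, which had 85 in UT and 56, 60, 91 and 150 at the 4 times of IL-4, each above both DMSO libraries of its group. The difference was 1.65 ± 0.29 (adjusted p = 2.74e-07), 0.80 against the run, 0.70 after quantile normalization and 0.59 after cyclic loess normalization, the last not called. With the PI3K and mTOR inhibitor BGT226 the Slc7a11 promoter had 140 in UT, 171 at 30 min, 120 at 1 h, 67 at 2 h and 136 at 4 h of IL-4. Each value was above both DMSO libraries of its group, with a difference of 0.77 ± 0.23 (adjusted p = 0.00436), 0.66 against the run and 0.56 after quantile normalization, the last not called (adjusted p = 0.0705). Slc7a11 +5.0 kb with BGT226 had 174 in UT and 207, 192, 74 and 120 at the 4 times of IL-4 (0.78 ± 0.24). Against the run, BGT226 was called at 3 of 34 members after IL-4 and at 10.8% of all CREs. With Vatalanib, an inhibitor of VEGF receptors, the same CRE had 63 in UT and 21, 80, 30 and 46 (-0.84 ± 0.24), and without the 30 min library the difference was -0.44. Gclc -17.0 kb with the MEK inhibitor Pimasertib had 168 in UT and 111, 57, 65 and 34 at the 4 times of IL-4. All 4 IL-4 values were below both DMSO libraries of their group, with a difference of -1.11 ± 0.19 (adjusted p = 4.5e-07), while UT was above both. The Gclc promoter was lower with Apatinib (-0.51 ± 0.19), with 118 in UT and 112, 115 and 42 at 30 min, 1 h and 2 h, and without the 2 h library the difference was -0.18.

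In unstimulated cells 167 of 1972 pairs were called, 144 higher and 23 lower, against 11.9% of all pairs, 10.3% higher and 1.62% lower. Since 43 of the 58 CKIs had 1 UT library, the spread came from the 15 that had 2 and from DMSO. Quantile normalization left 19 calls (4 higher and 15 lower), and 46 to 79 were left without the libraries of 1 replicate number. Against the other CKIs of the run 20 were called, against 1.29% of all pairs, and 9 of these fell on Talmapimod, a p38 inhibitor whose single UT library was called at 30.1% of all CREs. Without that library 9 were called. Bafetinib had the most calls against DMSO (12 of 34, and 38.8% of all CREs), followed by Talmapimod and GDC0994 (11 each, and 55.8% and 39.0% of all CREs), and several CKIs had 0. The Hmox1 promoter had 90 with Talmapimod, the lowest of 73 CKI libraries (90 to 364), against 289 and 306 with DMSO (-1.67 ± 0.22, adjusted p = 1.03e-06). The Gclc promoter had 244 with Afatinib, the highest of 73, and 45 with X396, the lowest, against 90 and 122 with DMSO (1.18 ± 0.32 and -1.14 ± 0.32). Against the run, Afatinib was called at 3 of 34 members in unstimulated cells and at 8.5% of all CREs. Gclc -3.6 kb was lower with OSI930 (-1.06 ± 0.24). These are single libraries and have no replicate of their own.

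Whether a CKI acted differently after LPS than after IL-4 was tested as a difference of its 2 effects against DMSO in the stimulated libraries. Of 1972 pairs 59 were called, 17 higher and 42 lower after LPS, against 3.81% of all pairs, 1.02% higher and 2.79% lower. Nfe2l2 -16.2 kb was lower after LPS with 15 CKIs, the Slc7a11 promoter with 8 and the Txnrd1 promoter with 4, while Gclc -17.0 kb was higher with 7, Gclc -22.3 kb with 6 and Srxn1 -24.1 kb with 4. In DMSO libraries the first 3 of these CREs had been called higher after LPS and Gclc -17.0 kb and Srxn1 -24.1 kb lower. All pairs share the same DMSO libraries. After quantile normalization 4 pairs were called, against the other CKIs of the run 6, and 17 to 21 without the libraries of 1 replicate number. Among the 3 named promoters and CREs with the most calls, the medians over the 58 CKIs were -0.92 at Nfe2l2 -16.2 kb, -0.48 at the Slc7a11 promoter and 0.67 at Gclc -17.0 kb, and after quantile normalization -0.37, -0.05 and 0.18.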

How the data were processed

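H3K27ac ChIP-seq was measured in 564 libraries of mouse BMDMs. The authors trimmed single-end reads and mapped them to mm10 (their notes name Bowtie and SAMtools, versions not given in the sources used here), counted them at ATAC-seq peaks and scaled each library by peaks that did not vary. The deposited values are rounded normalized counts and were treated as a score, not as raw counts, so no count model was used and the depth in reads is unknown. Scaled values depend on the peaks chosen for scaling.

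Values were tested as log2(value + 5) with limma 3.58.1 (R 4.3.3, trended variance, Benjamini-Hochberg adjustment over all CREs), among CREs with a mean of at least 10 in the libraries of a fit. Courses were called at an F-test adjusted p under 0.01 with a log2 difference over 1, and CKI effects, averaged over times, at an adjusted p under 0.05 with a log2 difference over 0.5. The interaction was called at an adjusted p under 0.05. The fits were tested on simulated data. Of the value columns 0 were left unused. Groups came from the labels. The labels do not say that libraries of a group came from separate cultures, so p-values measure the spread between these libraries, which may be technical. The runs of neighbouring table columns are not labelled as batches.

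The named CREs were the 8 promoters and, per stimulus, the 5 other called members of largest size. Members, lists and rules were chosen with earlier results of these data known, and some alternatives after the data were seen. Sequences came from RefSeq and the mm10 genome. Of the sequences and genes found, 1 motif site and 1 gene of similar course are not reported here.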

Additional observations from a re-analysis of the deposited data

Results flagged for a closer look

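At promoters, 18 of 464 pairs of a gene and a CKI differed between the stimuli in the effect of the CKI against DMSO (limma interaction, adjusted p under 0.05 over all CREs), close to the share of all CRE and CKI pairs (3.81%, 2.79% lower and 1.02% higher). All 18 differences, LPS minus IL-4, were negative, and all 18 kept that sign against the run and after quantile and cyclic loess normalization. They were called again in 2, 0 and 7 cases respectively. All share the same DMSO libraries.

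The Slc7a11 promoter held 8 of them. The difference was -1.05 with AMG208, -1.22 with AZD2014, -0.84 with Afatinib and -1.16 with BGT226. It was -1.18 with Lenvatinib, -1.22 with NMS1286937, -0.98 with Vatalanib and -0.97 with X396.

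At the Txnrd1 promoter the difference was -0.67 with AMG208, -0.71 with Bafetinib, -0.81 with PF04691502 and -0.67 with PH797804. At the Nfe2l2 promoter the difference was -0.59 with Bafetinib, -0.58 with PH797804 and -0.59 with Vatalanib. At the Srxn1 promoter it was -0.75 with AZD2014 and -0.72 with PH797804. At the Hmox1 promoter it was -1.02 with AZD2014, whose 2 h LPS library was the lowest of its group there. The pairs called again against the run were PH797804 at Srxn1 and at Txnrd1. With PH797804, 15.6% of all CREs were called against the run in this comparison.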

How the results depend on the processing

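Single CKI effects could change sign with the scaling, as with PH797804 at Gclm -9.5 kb after IL-4 (1.16, and -0.33 after cyclic loess normalization) and at Txnrd1 +4.6 kb after LPS (1.32 and -0.23). The CKI calls after LPS, after IL-4 and in unstimulated cells went from mostly higher to mostly lower after quantile and cyclic loess normalization. The 15 member CREs called after LPS in DMSO cells became 14 to 16 with each library left out in turn and 11 after quantile normalization. They became 14 after cyclic loess normalization and 8 with the CKI libraries in place of DMSO. These are totals that can hold newly called CREs, as with Hmox1 -21.9 kb after both normalizations. The 6 called after IL-4 became 4 to 7 with single libraries left out, 3 after quantile normalization, 14 with a log2 threshold of 0.5 and 2 with the CKI libraries. The 16 CREs at which LPS and IL-4 differed became 16 to 18 with single libraries left out. CKI calls depended most on the scaling and the reference. After LPS (515 pairs) there were 57 after quantile normalization, 134 after cyclic loess normalization, 231 with a log2 threshold of 1, 25 against the run, 24 against the run without the 30 min LPS library of PH797804, and 372 to 395 without 1 replicate number. After IL-4 (583 pairs) the counts were 57, 143, 214 and 17, and 438 to 504 without 1 replicate number. In unstimulated cells (167 pairs) they were 19, 20 and, against the run, 20, with 31 without the libraries with the suffix b, 9 against the run without the UT library of Talmapimod and 46 to 79 without 1 replicate number. The LPS against IL-4 difference of CKI effects (59 pairs) gave 4 after quantile normalization, 65 after cyclic loess normalization, 6 against the run and 17 to 21 without 1 replicate number. The cause was not tested, beyond the smaller number of libraries in the last. Recomputed courses of the named CREs, and the pairs of a CRE and a CKI refitted without single libraries, kept their call or stayed within 1 SE in 530 cases, lost the call in 21, gained it in 6 and moved further in 10, none with a change of sign.

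Replicate numbers did not pair the DMSO libraries: over 36 pairs of groups, the correlation of same-numbered deviations ran from -0.0873 to 0.0664 (median 0.00431). With a replicate block 15, 6 and 16 CREs were called, as many as without it. The number of reads behind a value is unknown, so that no counting interval can be given for weak CREs, and 474 of the CKI groups held 1 library.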
